A study of Gallus gallus with 6 samples.

Results

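Transcripts of the cathepsins, the main protein-degrading enzymes of the lysosome, were examined in the pectoral muscle of broiler chickens. The members were the genes whose name in the deposited expression table is CTSA, CTSB, CTSC, CTSD, CTSH, CTSK, CTSL, CTSL2, CTSS or CTSZ. Of these 10 names, 8 had a row among the 20943 genes of the table, and all 8 had a mean of at least 1 FPKM (fragments per kilobase of gene, scaled to library size), the level above which genes were tested. No row carried the name CTSD or CTSL. A row named RP11-295K3.1 is matched to chicken cathepsin D by the sequence annotation of the authors' deposited table. Its values are given beside the members, as those of the row matched to cathepsin D. Another row, LOC107050543, has a protein match to cathepsin D but reached at most 0.383 FPKM and was not tested. In a reference gene table, CTSL and CTSL2 are both older names of 1 gene, now called CTSV.

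The birds were female, 35 days old and fed the same basal diet. The 3 control libraries came from birds given 0 IU/kg of supplementary vitamin E, and the 3 vitamin E libraries from birds given 100 IU/kg as DL-α-tocopheryl acetate, an ester that is split in the gut to release the antioxidant α-tocopherol. Whether the 3 muscle samples of a group were taken from different birds is not in the labels, and p-values refer to the spread between samples, which may be technical. The title of the series sets the comparison in a study of fat within the muscle.

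Cathepsins are made as inactive precursors, carried to the lysosome largely by mannose 6-phosphate receptors, and activated there in an acid environment. Most belong to the papain-like cysteine proteases, in which a cysteine attacks the peptide bond. Cathepsin D is an aspartic protease and cathepsin A a serine carboxypeptidase. In skeletal muscle they degrade proteins that reach the lysosome by autophagy, and after slaughter they are among the enzymes studied in the tenderness of meat. Macrophages and fibroblasts, which lie between the fibres, also make cathepsins, and cystatins inhibit the cysteine enzymes.

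Library totals ran from 14161399 to 25477341 reads, and the controls were the 3 deepest. The reads behind a member's value in a library numbered between 401 for CTSH in control replicate 3 and 7399 for CTSB in control replicate 1. At 401 reads the counting error is 4.99% of the value, which is small beside the differences between libraries of a group. Counting error is not small beside the narrowest gaps between the groups. Muscle fibre markers were abundant in each library, with a summed level of 16 genes between 71913 and 91957 FPKM. The sum over all genes was between 484360 and 513685 FPKM. The calcium-binding protein gene PVALB, however, reached at most 0.649 FPKM, and 4 listed markers had no row. Control replicate 3 stood apart from the other libraries in the cathepsin genes. It had the lowest value in 7 of the 8 members, where 25.5% of all tested genes were lowest in that library. The results on the members are therefore given with and without it, and those on gene lists where leaving it out changes them.

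CTSB was the most abundant cathepsin transcript. It encodes cathepsin B, which cuts within proteins and also removes dipeptides from their carboxyl end, and it averaged 188 ± 34.7 FPKM (SD over 6 libraries). CTSL2, an endopeptidase gene whose protein is matched to cathepsin L1 in the deposited annotation, averaged 115 ± 22.0 FPKM, and CTSC, the dipeptidyl peptidase that activates granule serine proteases of blood cells, averaged 83.3 ± 25.8 FPKM. The order CTSB, CTSL2, CTSC, CTSK held in all 6 libraries at each step. The next 4 genes were CTSK (53.4 ± 14.5 FPKM), CTSZ (48.0 ± 7.06 FPKM), CTSS (47.0 ± 21.6 FPKM) and CTSA (46.3 ± 11.5 FPKM), and among them each neighbour in the order was within the spread between libraries. CTSH was the lowest at 26.8 ± 6.66 FPKM, and CTSA exceeded it in 6 of 6 libraries. CTSB and CTSL2 thus had higher levels per length than the other members in each library, while CTSC was below CTSS in control replicate 2 and below CTSZ in control replicate 3. The order is a description and was not tested, since it was set by the same values. The row matched to cathepsin D had levels between 50.7 and 114 FPKM, in the range of CTSL2 and CTSC.

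**Figure D1:**
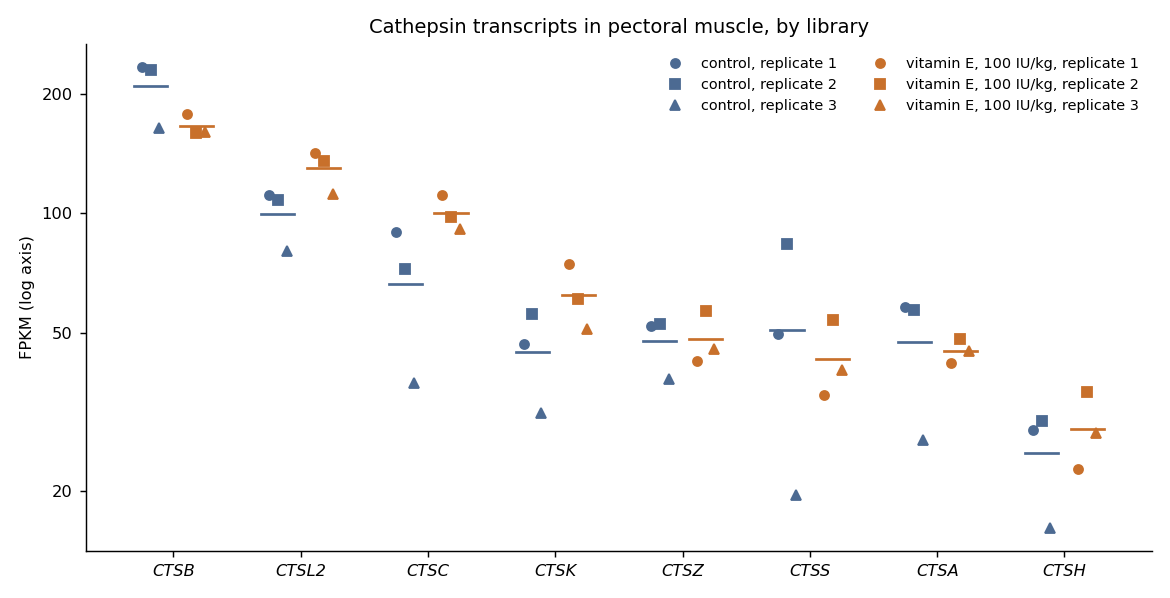
FPKM of each cathepsin gene on a log axis, in the 3 control libraries (blue) and the 3 vitamin E libraries (orange), with the replicate given by the symbol and the group mean by a line. CTSB lies highest and CTSH lowest, control replicate 3 (blue triangle) is the lowest point of every gene except CTSB, and the groups are separate in CTSC and CTSL2 only.

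None of the 8 cathepsin genes passed the comparison of vitamin E with control (limma on log2(FPKM + 1), adjusted over all 11320 tested genes), in which 0 genes of the table passed (0%). At an unadjusted p under 0.05 there were 0 members higher and 0 lower, against 5.97% of all tested genes higher and 3.14% lower (9.11% in all). Without control replicate 3 there were 2 members lower, CTSA and CTSB, and 0 higher, against 3.63% of tested genes lower and 3.91% higher. In CTSC and CTSL2 the lowest vitamin E value exceeded the highest control value, and in no member was the reverse seen. Among all tested genes the groups were separate in this way in 8.86% (higher) and 5.72% (lower). Leaving out control replicate 3 could not undo the separation of CTSC and CTSL2. Without it CTSA and CTSB were separate and lower. Of all tested genes, 12.3% were then separate and higher and 11.1% separate and lower. The median log2 difference of the 8 members was 0.12, and that of all tested genes was 0.02. Without control replicate 3 the median of the members turned to -0.09.

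CTSL2 and CTSK encode endopeptidases, which cut within protein chains. CTSL2 (chromosome Z, 41408609 to 41414029, plus strand) had 111, 108 and 80.4 FPKM in controls and 142, 136 and 112 FPKM with vitamin E. The highest control and the lowest vitamin E library were nearly level, at 111.4 and 112.0 FPKM on 3969 and 2393 reads. The groups were thus separate by a margin narrower than the counting error. The group means were 99.9 ± 17.0 and 130 ± 15.7 FPKM (SD, n = 3), a log2 difference of 0.38 ± 0.17 (SE; limma, adjusted p = 0.560), the lowest adjusted p of the family. It was 0.23 without control replicate 3.

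CTSK encodes cathepsin K, which in mammals is the collagen-cleaving enzyme of osteoclasts and is also made by fibroblasts. It lies on chromosome 25 (2586099 to 2589028, minus strand) and had 46.8, 55.7 and 31.4 FPKM in controls and 74.6, 61.0 and 51.0 FPKM with vitamin E. The groups overlapped through control replicate 2, which exceeded vitamin E replicate 3. The log2 difference was 0.49 ± 0.23 (SE; limma, adjusted p = 0.580), and 0.26 without control replicate 3.

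CTSS encodes cathepsin S, an endopeptidase of antigen-presenting cells that trims the invariant chain of class II molecules. It is the neighbour of CTSK on the same strand (2580937 to 2585626), with a gap of 472 bases between the genes in the deposited positions. In a reference gene table, whose build may differ, the intervals of the genes overlap, and reads in an overlap could not be given to 1 gene. CTSS had 49.7, 83.6 and 19.5 FPKM in controls and 34.9, 53.9 and 40.3 FPKM with vitamin E. The controls differed among themselves by 4.28-fold, with control replicate 2 highest and control replicate 3 lowest of all 6 libraries, and the vitamin E libraries lay between them. Its residual SD of 0.76 on the log2 scale was the largest of the family and exceeded that of 98.1% of tested genes, where the median gene had 0.19. The log2 difference was -0.04, with a 95% interval from -1.15 to 1.07 (limma). Leaving out control replicate 3 gave -0.59 and leaving out control replicate 2 gave 0.43.

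CTSB (chromosome 3, 107829340 to 107838426, minus strand) had the only lower value that exceeded its standard error. The controls had 234, 230 and 164 FPKM and the vitamin E libraries 178, 160 and 161 FPKM. Controls 1 and 2 were far above the other 4 libraries, while control replicate 3 fell within the vitamin E range. The means were 209 ± 38.9 and 166 ± 10.03 FPKM (SD, n = 3), a log2 difference of -0.32 ± 0.16 (SE; limma, adjusted p = 0.601). Without control replicate 3 it was -0.48, with an adjusted p of 0.605 in limma. Among the other tested genes with a symbol, the patterns most like that of CTSB over the 6 libraries were those of PIK3AP1, ABHD12B and CA3, with Pearson's r of 0.99, 0.98 and 0.98. For CTSL2 they were SNX7, TRAPPC13 and GHDC, each with r = 0.99. These were the highest of 9697 correlations and are given as a description.

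**Figure D2:**
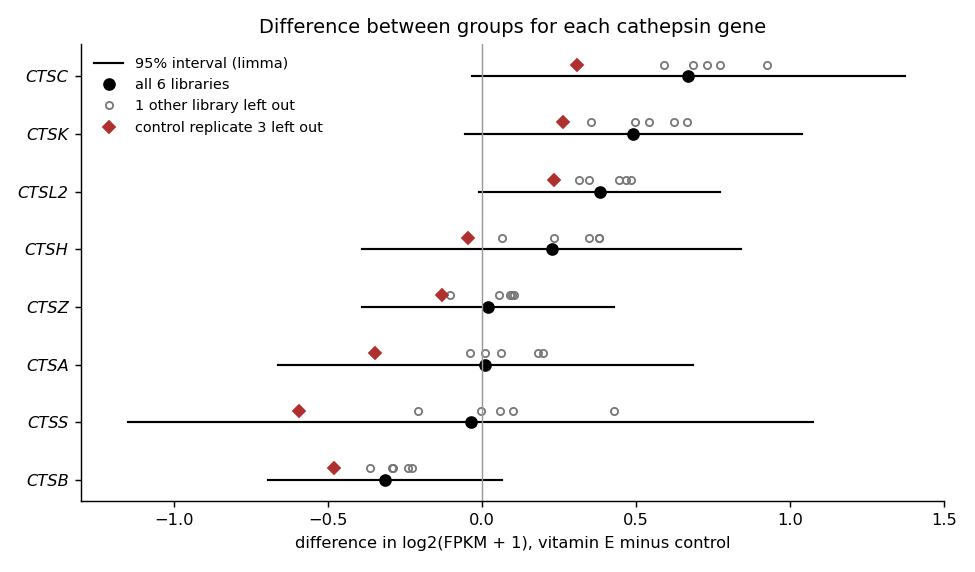
Difference in log2(FPKM + 1) between vitamin E and control libraries for each cathepsin gene (black point) with its 95% interval from limma (line), and the same difference with 1 library left out (open circles) or with control replicate 3 left out (red diamonds). Every interval includes 0, and the red diamond is the lowest value in all 8 genes, at 0.31 for CTSC and -0.59 for CTSS.

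The remaining members act at the ends of protein chains. CTSC (chromosome 1, 188310772 to 188327051, plus strand) had the largest difference of the family. Its values were 89.6, 72.3 and 37.5 FPKM in controls and 111, 97.7 and 91.5 FPKM with vitamin E. Control replicate 1 was just under the lowest vitamin E library, by about the size of the counting error. Control replicate 3 was far below all others. The means were 66.4 ± 26.6 and 100.2 ± 10.1 FPKM (SD, n = 3), a ratio of 1.51 and a log2 difference of 0.67 ± 0.30 (SE; limma, adjusted p = 0.566). Without control replicate 3 the log2 difference was 0.31.

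CTSH (chromosome 10, 19950730 to 19956595, minus strand) encodes an aminopeptidase, which removes residues from the amino end. It had 28.5, 29.9 and 16.2 FPKM in controls and 22.7, 35.6 and 28.0 FPKM with vitamin E, so the groups overlapped widely. Its log2 difference was 0.23, with a 95% interval from -0.39 to 0.84 (limma), and it turned to -0.05 without control replicate 3. CTSZ (chromosome 20, 11097524 to 11102234, plus strand) encodes cathepsin Z, a carboxypeptidase. Its 6 values lay between 38.4 and 56.9 FPKM, with means of 47.8 ± 8.14 and 48.3 ± 7.63 FPKM (SD, n = 3).

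CTSA (chromosome 20, 10729872 to 10733818, plus strand) encodes the protective protein that also keeps lysosomal β-galactosidase and neuraminidase stable. The controls had 58.3, 57.1 and 26.8 FPKM and the vitamin E libraries 42.0, 48.3 and 45.1 FPKM. All vitamin E values lay between control replicate 3 and the other controls. The log2 difference was 0.01, which turned to -0.02 with TMM-type or median-of-ratios scaling and to -0.35 without control replicate 3. That of CTSZ was 0.02 and turned to -0.01 with either scaling and to -0.13 without control replicate 3. The 95% intervals ran from -0.66 to 0.68 for CTSA and from -0.39 to 0.43 for CTSZ (limma), and differences within them cannot be told from 0 with 3 libraries a group. The row matched to cathepsin D had 114, 78.3 and 83.6 FPKM in controls and 86.6, 50.7 and 99.5 FPKM with vitamin E, with a log2 difference of -0.25 and overlapping groups. It was not lowest in control replicate 3.

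With all 6 libraries, the shares of single members in the family separated the groups where its total did not. The summed level of the 8 genes was 670.2, 689 and 414 FPKM in controls and 647, 649 and 574 FPKM with vitamin E. The groups overlapped through control replicate 3 alone. Without that library the sum was separate and lower with vitamin E. CTSB made up between 33.3% and 39.6% of that sum in controls and between 24.6% and 28.0% with vitamin E. The share of CTSC was between 9.04% and 13.4% in controls and between 15.1% and 17.2% with vitamin E. CTSK reached at most 8.09% in a control and at least 8.89% with vitamin E, and for CTSL2 these limits were 19.4% and 19.5%. That margin of CTSL2 was narrower than its counting error, which was 2.34% of the value in control replicate 3. Thus 3 of 8 members had separate and higher shares and 1 a separate and lower share. Leaving out control replicate 3 could not undo these separations, and without it the share of CTSA was separate and lower too. No share over all tested genes is given for that setting, so the result for CTSA has no background. Shares of the same sum are not independent, and a lower share of CTSB raises the summed share of the others. When every tested gene was divided by the same sum, with all 6 libraries, 3.03% were separate and higher and 3.71% separate and lower. Apart from the members, those genes are not parts of the sum, so these percentages are not a like comparison.

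Set against CTSB in the same library, a ratio that no scaling of libraries changes, CTSL2 was at 0.477, 0.470 and 0.489 in controls and at 0.798, 0.849 and 0.697 with vitamin E. The controls were close to each other in this ratio, control replicate 3 included, and every vitamin E library was well above them. The ratio of CTSC to CTSB was 0.384, 0.315 and 0.228 in controls and 0.626, 0.611 and 0.570 with vitamin E. That of CTSK to CTSB was 0.200, 0.243 and 0.191 in controls and 0.420, 0.382 and 0.318 with vitamin E. Of the 7 ratios to CTSB, 4 were separate between the groups, those of CTSC, CTSK, CTSL2 and CTSZ, all higher with vitamin E. For CTSZ the margin was narrow, at most 0.233 in a control and at least 0.239 with vitamin E. Leaving out control replicate 3 could not undo these separations, and no other ratio to CTSB became separate without it. Over all 28 pairs of members, 8 ratios were separate with all libraries, these 4 included. No such share over pairs of other genes is given, so this count has no background. Divided by CTSB, with all 6 libraries, 27.0% of all tested genes were separate and higher and 0.504% separate and lower. These shares and ratios were chosen after the values were seen, and none was tested, since groups of 3 allow no two-sided p below 0.1 in an exact permutation test.

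**Figure D3:**
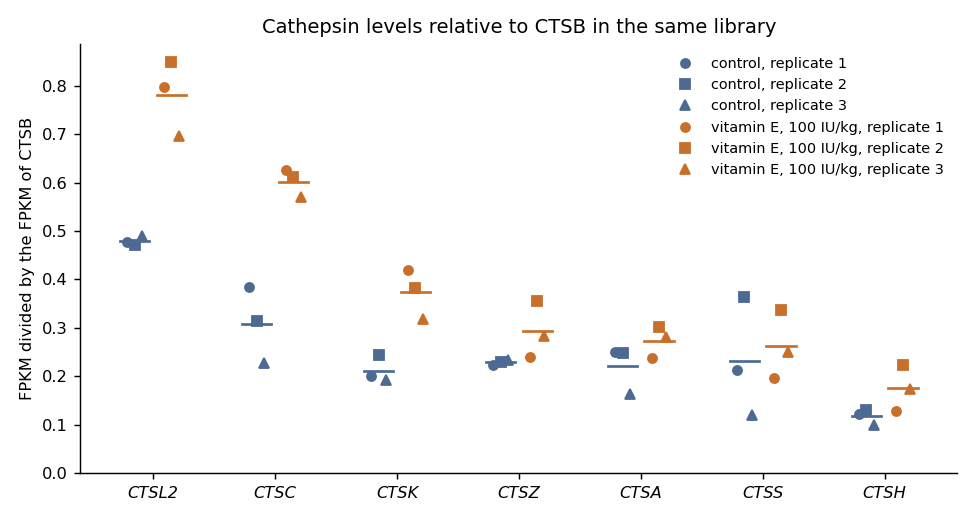
FPKM of 7 cathepsin genes divided by the FPKM of CTSB in the same library, for the 3 control (blue) and 3 vitamin E libraries (orange), with the group mean as a line. The controls of CTSL2 lie together near 0.48 and its vitamin E libraries between 0.697 and 0.849, and the groups are also separate for CTSC, CTSK and CTSZ.

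Members varied together in a pair of sets, described here after the values were seen. CTSC, CTSK and CTSL2 had Pearson's r between 0.90 and 0.96 with each other on the log2 scale over the 6 libraries. CTSA, CTSH, CTSS and CTSZ had r between 0.85 and 0.94 with each other. CTSB was nearest to CTSA, at 0.66, and was at -0.04 with CTSL2. Over all 28 pairs the median r was 0.59, and it rested on 1 library. Without control replicate 3 the median was -0.20, and 16 pairs were below 0. Within the first set the values then ran from 0.59 for CTSC and CTSK to 0.86 for CTSK and CTSL2. Within the second they ran from 0.44 for CTSA and CTSH to 0.92 for CTSH and CTSZ. Across the sets CTSC and CTSS stood at -0.89. CTSB, which is in neither set, stood at 0.85 with CTSA. The neighbours CTSK and CTSS had r = 0.54, and -0.33 without that library.

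Markers of other cells moved with both sets. In bulk tissue, fewer cells of a type and less RNA per cell cannot be told apart. Of 27 macrophage markers 22 had a row and 18 were tested, and none of the 22 was at 0 in every library. Of these 18, 16 were lowest in control replicate 3, against 25.5% of all tested genes. The mean of the list there was -0.56 relative to all libraries. The other libraries lay between -0.11 and 0.38, with control replicate 2 highest, as for CTSS. CTSS had r = 0.96 with the mean of these markers over the 6 libraries, and 0.90 without control replicate 3. CTSA, CTSH and CTSZ followed at 0.90, 0.84 and 0.82, which became 0.59, 0.41 and 0.61 without that library. The other members also varied with these markers over the 6 libraries. CTSC, CTSK and CTSL2 were at 0.68, 0.74 and 0.67, which became -0.64, 0.09 and -0.16 without control replicate 3. CTSB was at 0.54, and at 0.53 without it. The summed macrophage level was between 149 and 299 FPKM in controls and between 305 and 330 FPKM with vitamin E. LY86 gave the most to that sum in every library, so the sum does not speak for the list as a whole. It had 131, 54.0 and 48.3 FPKM in controls and 164, 152 and 157 FPKM with vitamin E. By log2 difference 10 of the tested markers were higher and 8 lower, where 54.2% of all tested genes were higher. Of the 18 tested markers, 1 was higher at an unadjusted p under 0.05, LY86 itself, and 0 were lower. Of all tested genes, 5.97% were higher and 3.14% lower. The scavenger receptor gene MARCO had a log2 difference of -0.36, and -0.83 without control replicate 3. The median difference of the list was 0.04, and -0.23 without that library. In that setting 3 of 17 tested markers were lower and 1 higher at an unadjusted p under 0.05. Of all tested genes, 3.63% were then lower and 3.91% higher. The part of macrophage RNA in the values of CTSA, CTSH, CTSS and CTSZ was not tested. Lists of lymphocyte and adipocyte markers also had their lowest mean in control replicate 3, at -0.35 and -0.38. Those of endothelial and red blood cell markers were lowest in control replicates 1 and 2, at -0.20 and -0.79.

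CTSK and CTSL2 varied with the fibroblast markers, a list whose higher values with vitamin E were known beforehand. All 22 had a row and were tested, and none was at 0. Their summed level was between 3238 and 3803 FPKM in controls and between 4164 and 5340 FPKM with vitamin E, and the mean over the list was lowest in control replicate 3 (-0.43) and highest in vitamin E replicate 1 (0.45). The list had 16 genes higher and 0 lower at an unadjusted p under 0.05, a median log2 difference of 0.54, and 0 genes past the adjusted test in limma. Of all tested genes, 5.97% were higher and 3.14% lower at that unadjusted p. The counts of the list were 8 higher and 1 lower, with a median of 0.43, when control replicate 3 was left out. Of all tested genes, 3.91% were then higher and 3.63% lower. CTSK had r = 0.94 with the mean of the list and CTSL2 had 0.93, and without control replicate 3 these were 0.92 and 0.89. CTSC was at 0.83 and 0.76. The other members had r between -0.28 for CTSB and 0.43 for CTSH. Without control replicate 3 they were between -0.90 for CTSA and -0.37 for CTSH. The collagen genes COL1A1 and COL3A1, whose products cathepsin K is known to cleave in mammals, had log2 differences of 0.64 and 0.77. The part of fibroblast RNA in the values of CTSC, CTSK and CTSL2 was not tested. The mean of the muscle fibre markers lay between -0.10 and 0.13 in every library, and was -0.02 in control replicate 3. CTSB had r = 0.81 with it, and also 0.81 without control replicate 3. For CTSA these were 0.44 and 0.67. The part of muscle fibre RNA in the values and ratios of CTSB was not tested.

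**Figure D4:**
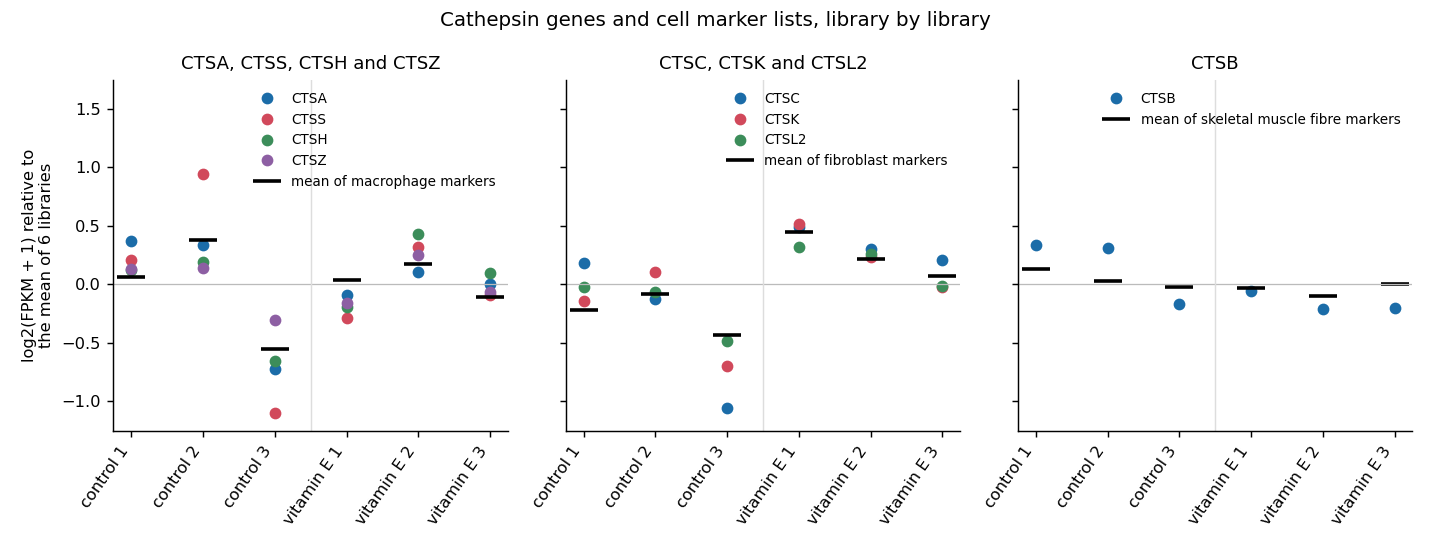
Log2(FPKM + 1) of each cathepsin gene relative to its mean over the 6 libraries, by library, with the mean of a marker list as a black bar (macrophage, fibroblast and muscle fibre markers, from left to right). In control replicate 3 all 8 genes and the macrophage and fibroblast bars are below 0, and in vitamin E replicate 1 CTSC, CTSK, CTSL2 and the fibroblast bar are above 0.3.

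Inhibitors of the cysteine cathepsins were measured in the same libraries. CST3, which encodes the secreted inhibitor cystatin C, was more abundant than any cathepsin gene in each library. It had 411, 449 and 369 FPKM in controls and 918, 539 and 481 FPKM with vitamin E. The groups did not overlap, and vitamin E replicate 1 was far above the rest. The log2 difference was 0.60 ± 0.24 (SE; limma, adjusted p = 0.527). The cytosolic inhibitor gene CSTB differed by 0.17. Of 15 listed inhibitors 11 had a row and 4 were tested. CST3 was the only one at an unadjusted p under 0.05, and it was higher, as were 5.97% of all tested genes. None of the 4 had such a p when control replicate 3 was left out, where the log2 difference of CST3 was 0.53.

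A list named other cathepsins and cathepsin-activating peptidases had 7 tested genes. Among them 1 was higher at an unadjusted p under 0.05, against 5.97% of all tested genes. It was CTSG, which in mammals encodes a serine protease of neutrophil granules and is matched to a mast cell protease in the deposited annotation. It had 13.7, 28.1 and 9.86 FPKM in controls and 24.9, 29.5 and 41.1 FPKM with vitamin E, with overlapping groups and an adjusted p of 0.503 (limma), and without control replicate 3 none of the 7 had an unadjusted p under 0.05. LGMN encodes legumain, which processes several cathepsin precursors in mammals, and differed by -0.24, and by -0.36 without control replicate 3. TPP1, a tripeptidyl peptidase, differed by 0.16, which turned to -0.09 without control replicate 3. CTSO had between 1.30 and 2.15 FPKM, and a cathepsin L1-like gene, LOC420160, between 0.674 and 1.81 FPKM.

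Of 19 tested genes that carry enzymes to the lysosome, 0 had an unadjusted p under 0.05, and their median log2 difference was 0.03. The mannose 6-phosphate receptor genes M6PR and IGF2R differed by -0.07 and 0.19, SORT1, a sorting receptor, by -0.30, and PSAP, the precursor of the saposins, by -0.06. Without control replicate 3, SORT1 was at -0.40 and PSAP at -0.23. In the list of lysosomal membrane and acidification, 3 of 31 tested genes were higher and 0 lower at an unadjusted p under 0.05, with a median of 0.10. Of all tested genes, 5.97% were higher and 3.14% lower at that p. The median of the list was 0.01, with 2 genes higher and 0 lower, when control replicate 3 was left out. Of all tested genes, 3.91% were then higher and 3.63% lower. The membrane glycoprotein genes LAMP1 and LAMP2 differed by 0.09 and 0.24, and the proton pump gene ATP6V0D1 by -0.09. LAMP1 was at 0.001 without control replicate 3. The list named other lysosomal hydrolases, in which not every gene encodes a hydrolase, had 3 of 31 higher and 2 lower, with a median of 0.21. Without control replicate 3 these counts were the same and the median was 0.04. The glycogen-degrading enzyme gene GAA differed by 0.29, and by 0.13 without control replicate 3. In control replicate 3, 24 of the 31 genes on the hydrolase list had their lowest value. So did 17 of the 31 membrane genes and 9 of the 19 sorting genes, against 25.5% of all tested genes. With the mean of the hydrolase list, CTSB had r = 0.26 over the 6 libraries, and the other members between 0.65 and 0.90. Without control replicate 3, r ran from -0.24 for CTSC to 0.60 for CTSK.

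Of 10 tested regulators of lysosomal genes, among them the transcription factors that drive them, 0 had an unadjusted p under 0.05. Of all tested genes 9.11% had such a p in either direction, which in lists this short is few genes. The median log2 difference of the regulators was -0.08, and TFEB and MITF differed by 0.13 and -0.16. Of 8 tested genes of class II antigen presentation, in which cathepsin S acts, 0 had an unadjusted p under 0.05, against the same 9.11%. Their median log2 difference was 0.07, and -0.12 without control replicate 3. CD74, the invariant chain, had 561, 794 and 406 FPKM in controls and 579, 721 and 545 FPKM with vitamin E. Its highest and lowest values, like those of CTSS, were in control replicates 2 and 3, and its log2 difference was 0.11, which turned to -0.13 without control replicate 3.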

How the data were processed

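The authors deposited 1 table of FPKM values per gene for 6 poly(A)-selected libraries. TopHat2 2.0.12 appears in the submitters' processing notes. The sources used here do not give the read counter, annotation, strand setting or genome build. Positions are the deposited ones, and chromosome names come from the chromosome on which a RefSeq gene table lists the same symbols (at least 99.1% on 1 chromosome per sequence record).

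In each library a gene's FPKM moves in steps of 1 read, which gave library totals and whole reads for all 11320 tested genes (mean of at least 1 FPKM). A gene whose reads share a common factor gets too few. Libraries of a group differed pairwise by 21.8 to 112 chi-square units per degree of freedom, above sampling noise. Counting error covers reads only, and reads are not independent molecules.

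The groups were set against each other with limma 3.58.1 (R 4.3.3, two-sided) on log2(FPKM + 1) and an intensity trend, with Benjamini-Hochberg adjustment over all tested genes and a threshold of 0.05. This scale understates changes of low genes. The scripts were tested on simulated data. Intervals used scipy 1.17.1. The order of the levels was not tested. Alternatives were pseudocounts of 0.1 and 0.5, no filter, a minimum of 5 FPKM, 3 scalings, other limma priors and weights, 2 blocks, voom on recovered reads, and leaving out each library. Named genes were the 8 members, 20 genes taken from the lists by role (19 had a row, of which 1 is not reported here) and the 3 genes most correlated with CTSB and CTSL2. CTSG, CTSO, LY86, PVALB and the rows matched to cathepsins D and L1 were named after their values were seen. The members and lists were chosen with earlier results of these data known. Replicate numbers did not pair the libraries.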

Additional observations from a re-analysis of the deposited data

How the results depend on the processing

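None of the 8 cathepsin genes passed the adjusted test under any of 19 alternatives, with adjusted p values of 0.294 or more in limma. Of 152 alternative values of their differences 139 kept the direction. Changes of filter, limma prior or block cannot alter a difference, so their values were bound to keep it. CTSA and CTSZ turned to -0.020 and -0.012 with TMM-type scaling and to -0.019 and -0.011 with median-of-ratios scaling, and CTSS turned to 0.13 with library quality weights. With 1 library left out, CTSA ranged from -0.35 to 0.20, CTSH from -0.046 to 0.38, CTSS from -0.59 to 0.43 and CTSZ from -0.13 to 0.11. The lowest of each was without control replicate 3. CTSA turned to -0.038 and CTSZ to -0.10 without vitamin E replicate 2. CTSS turned to 0.058 when control replicate 1 was missing and to 0.099 when vitamin E replicate 1 was, and its highest value came without control replicate 2. CTSB, CTSC, CTSK and CTSL2 kept their direction in all 19, the settings that could not alter it included.

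At an unadjusted p under 0.05, 2 members were higher with library quality weights (CTSC and CTSL2), as were 6.57% of tested genes. With either the replicate block or the description digit block 3 were higher (CTSC, CTSK and CTSL2), against 5.82% and 6.04% of tested genes. The description digit is the first digit in the code of each sample's description. It was 2 for control replicate 3 and vitamin E replicate 3 and 1 for the other libraries, and its meaning is not in the labels. Whether it bears on the low values of control replicate 3 was not tested. Libraries of the same replicate number did not deviate together (correlations of deviations -0.13, 0.15 and 0.012), so the replicate numbers were not taken as pairs. With 1 library left out, between 0 and 2 members were higher, 2 of them without control replicate 1 (5.47% of tested genes), and between 0 and 2 were lower, both lower ones (CTSA and CTSB) without control replicate 3 (3.63%). Over all genes, 2 passed the adjusted test, both higher, with a minimum of 5 FPKM and with voom on recovered reads. Leaving out a library can add separations but cannot undo them. With 1 library left out, members with separate values numbered between 2 and 3 higher and between 0 and 2 lower. Of all tested genes, between 11.9% and 18.7% were then separate and higher and between 9.003% and 12.9% separate and lower. The cause of these changes was not tested. Each member value rested on at least 401 reads.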
